A study of Homo sapiens with 12 samples.

Results

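Bafilomycin A1 (BafA1), an inhibitor of the proton pump that acidifies lysosomes, was given to HEK293T cells that had already been supplied with iron, and their transcripts were compared with those of cells given the iron alone. HEK293T, an embryonic kidney cell line made with the large T antigen of SV40, is labelled wild type here and was grown in RPMI medium with serum. The iron source in both groups was ferric ammonium citrate (FAC), a soluble salt used at 0.1 mg/ml for 24 h. The FAC+BafA1 group was then treated with BafA1 at 10 nM for 24 h, and the FAC group received no BafA1. The treatment protocol describes FAC as a preincubation, and the series' design text calls the combination a co-treatment, so whether FAC was still present during the BafA1 treatment is not settled by the labels. The libraries were chosen by their labels and not by any measured value: 3 FAC+BafA1 and 3 FAC libraries, 6 of the 12 in the series. The other 6, control cells and cells given BafA1 without FAC, are used only to ask whether the response to BafA1 differed when iron was supplied. The comparison covers 1 cell line, 1 dose of each agent and 1 time, and its baseline is an iron-supplied cell, not an untreated one. The labels number the replicates without stating whether each came from its own culture, and p-values therefore reflect the variation among these libraries, which may be technical.

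The V-ATPase pumps protons into lysosomes and endosomes. Cells take up transferrin-bound iron through the transferrin receptor, and the acid of the endosome releases the iron, which is then reduced and carried into the cytosol. Lysosomal acid is also needed to break down ferritin, the iron storage protein. Iron supplied as FAC can enter the cell without transferrin. Cytosolic iron is sensed by the iron regulatory proteins IRP1 and IRP2: when iron is low they bind hairpins called iron-responsive elements (IREs), which protects the mRNA of the transferrin receptor from decay when the hairpins lie in its 3′ UTR and blocks translation of ferritin mRNA when the hairpin lies in the 5′ UTR.

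The deposited values are FPKM, fragment numbers scaled by transcript length and library size, so levels of different genes can be compared per length. The files give no depth, and the estimate from the steps of low FPKM values was 38300000 to 40200000 fragments in the FAC libraries and 37700000 to 38400000 in the FAC+BafA1 libraries. Each of the 6 libraries had 13441 to 13582 genes at 1 FPKM or more. Pairs of libraries correlated across genes (not independent points) at 0.992 to 0.994 within the groups and 0.988 to 0.99 between them on the log2 scale, and no library stood apart. Of 6 markers of the HEK293T line, 5 had a mean of at least 1 FPKM, and 3 of these 5 were called higher and 1 lower. Their summed level was 171.58 to 173.3 FPKM in FAC and 177.56 to 179.77 in FAC+BafA1. None of 8 keratinocyte or HeLa markers reached this level, nor did 8 of 10 blood and 7 of 8 fibroblast markers. Mitochondrially encoded genes held 1.48% to 1.817% of all FPKM in FAC and 1.706% to 2.225% in FAC+BafA1, and the part of this in the results was not tested. In bulk RNA, fewer cells of a kind and less RNA per cell cannot be told apart.

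BafA1 changed the level of 2311 of the 13468 genes tested in iron-supplied cells (17.2%): 1189 rose (8.83%) and 1122 fell (8.33%). A gene was tested where the mean of the 6 libraries reached 1 FPKM, and called where limma's adjusted p was under 0.05. Most of these differences were small. The median size was 0.26 on the log2(FPKM + 1) scale among called genes, 295 genes changed by at least 0.5, and 48 changed by at least 1, of which 42 rose and 6 fell. In each of the 48 the replicate values did not overlap, as was the case for 37.6% of all genes tested. The number of calls rose with expression, from 7.455% in the lowest of 4 equal groups of genes by mean FPKM to 28.6% in the highest, where the standard error of a log2 change was smallest. It also fell with every library left out. Leaving out 1 of FAC replicate 1, FAC replicate 2 or any FAC+BafA1 replicate left 1238 to 1427 calls, and leaving out FAC replicate 3 left 2027.

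**Figure D1:**
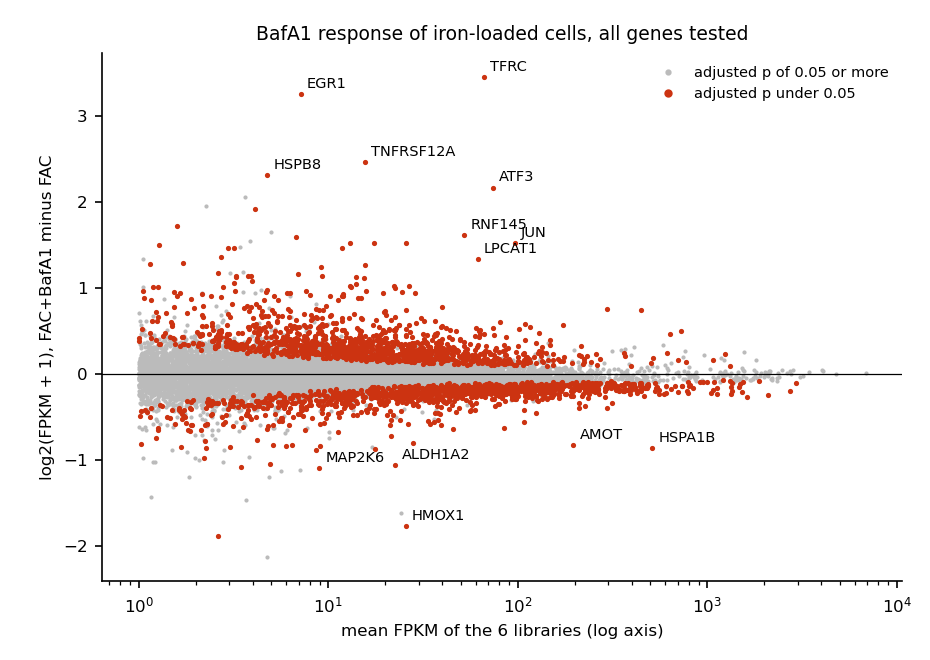
Change in log2(FPKM + 1) from FAC to FAC+BafA1 (vertical axis) against the mean FPKM of the 6 libraries (horizontal log axis) for 13468 genes, 1 point each. The 2311 genes in red passed the threshold, and TFRC, at 3.46, lies above all of them, while most red points lie between -0.5 and 0.5.

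Genes were grouped by known role into 30 lists, and the share of members that rose or fell is read against the 8.83% and 8.33% of all genes. The lists were chosen with earlier results of these data known, so these shares describe the lists and are not independent evidence. The lists with the highest share of risers were the immediate early genes (20 of 24 measured members), the MAP kinase feedback genes (11 of 14) and the mRNAs with iron-responsive elements (5 of 9). The highest shares of genes that fell were in heat shock and cytosolic chaperones (14 of 25), metallothionein and zinc response (3 of 7), NRF2 and antioxidant genes (13 of 31) and the nuclear-encoded respiratory chain (30 of 76). No test of the lists as such was made.

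**Figure D2:**
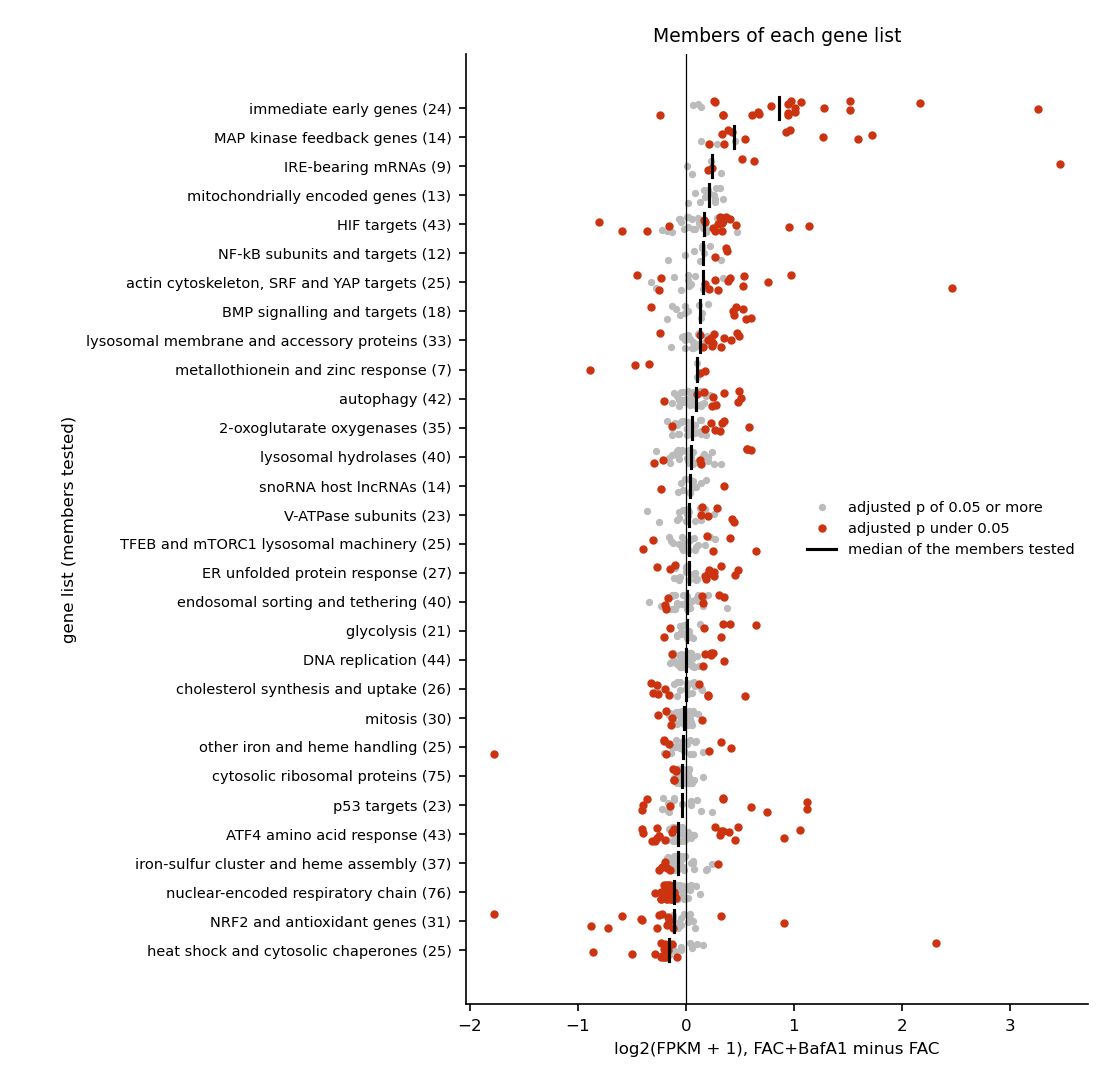
Change in log2(FPKM + 1) from FAC to FAC+BafA1 (horizontal axis) for each tested member of 30 gene lists (rows, with the number of members tested). Red points passed an adjusted p of 0.05, and black bars are medians, which run from 0.87 for immediate early genes to -0.16 for heat shock genes.

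TFRC, which encodes transferrin receptor 1, showed the largest rise of all called genes on the log2(FPKM + 1) scale. Its level was 9.39, 9.63 and 11.7 FPKM in the FAC libraries and 124, 119 and 124 FPKM in the FAC+BafA1 libraries. Every FAC+BafA1 library was about an order of magnitude above every FAC library. The ratio of means was 11.9-fold, and the log2 change was 3.46 (SE 0.076, adjusted p = 7.76e-07, limma). Without FAC, the means were 58.3 FPKM in control and 130.2 in BafA1, a log2 change of 1.15. The change with FAC was larger by 2.32 (adjusted p of the interaction 3.5e-09). The 3 control libraries, at 57.2 to 59.1 FPKM, all lay above the 3 FAC libraries.

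The TFRC gene (ENSG00000072274) lies on the minus strand at chr3:196012511-196082153 of GRCh38. A search of the canonical transcripts for the IRE consensus, a C followed by a stem of 5 bases, the 6-base loop CAGTGN and 5 bases that pair with the stem, found 4 hairpins in its 3′ UTR, all in exon 19 of 19. They are shown because TFRC carries the largest change on the log2(FPKM + 1) scale. They are given with the ferritin and ferroportin hairpins that lie in 5′ UTRs, in the sense of the mRNA with T for U, and capitals mark the C and the loop.
TFRC hairpin, chr3:196050979-196051007: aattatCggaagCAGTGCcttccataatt
TFRC hairpin, chr3:196050575-196050603: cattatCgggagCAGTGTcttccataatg
TFRC hairpin, chr3:196050510-196050538: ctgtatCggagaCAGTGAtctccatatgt
TFRC hairpin, chr3:196050463-196050491: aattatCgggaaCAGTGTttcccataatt
FTH1 hairpin, chr11:61967574-61967602: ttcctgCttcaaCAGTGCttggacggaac
FTL hairpin, chr19:48965335-48965363: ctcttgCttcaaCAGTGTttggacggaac
SLC40A1 hairpin, chr2:189580661-189580689: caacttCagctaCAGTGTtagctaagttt
The TFRC, FTH1 and SLC40A1 hairpins are on the minus strand and the FTL hairpin is on the plus strand. Of 11588 coding genes tested, 73 (0.63%) had such a match in the 3′ UTR and 6 (0.0518%) in the 5′ UTR, and TFRC was the only gene with 3 or more. CDC14A had 1 in its 3′ UTR, and the canonical transcripts of SLC11A2, EPAS1 and CDC42BPA held no match. A match is a description of the sequence and not evidence of binding.

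Of the 9 measured mRNAs with known iron-responsive elements, 5 rose, none fell, and the median log2 change was 0.25 beside 0.005 over all genes tested (3 to 5 rose with 1 library left out). The other called members moved far less than TFRC. SLC11A2, the divalent metal transporter DMT1 that carries iron out of endosomes, was at 11.2, 11.6 and 12.8 FPKM in FAC and 17.4, 16.9 and 17.8 in FAC+BafA1. The groups did not overlap, and the log2 change was 0.52 (SE 0.059, adjusted p = 0.00177). FTH1, the ferritin heavy chain, which has many processed pseudogenes that can take its reads, was at 563, 547 and 568 FPKM in FAC and 671, 676 and 643 in FAC+BafA1, again without overlap (log2 change 0.25, SE 0.028, adjusted p = 0.00167). Without FAC it had moved the other way, from a mean of 608 to 553 FPKM, and the difference between the changes was 0.38 (adjusted p = 7.7e-05).

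FTL, the ferritin light chain, was at 360, 347 and 323 FPKM in FAC and 389, 397 and 404 in FAC+BafA1, a log2 change of 0.21 (SE 0.040, adjusted p = 0.0139). Its call was lost without FAC+BafA1 replicate 3 (adjusted p = 0.0517). EPAS1, which encodes HIF-2α, was at 4.94, 6.06 and 4.32 FPKM in FAC and 7.43, 7.84 and 10.1 in FAC+BafA1 (log2 change 0.63, adjusted p = 0.0197). SLC40A1, the iron exporter ferroportin, was near the expression minimum, at 0.97 to 1.35 FPKM in FAC and 1.57 to 1.75 in FAC+BafA1. Its groups did not overlap, but it missed the threshold (log2 change 0.32, adjusted p = 0.073). It passed with no intensity trend (adjusted p = 0.0424) and in the limma fit to 12 libraries (0.0298). CDC14A (0.23) and CDC42BPA (0.06) did not pass the test either.

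**Figure D3:**
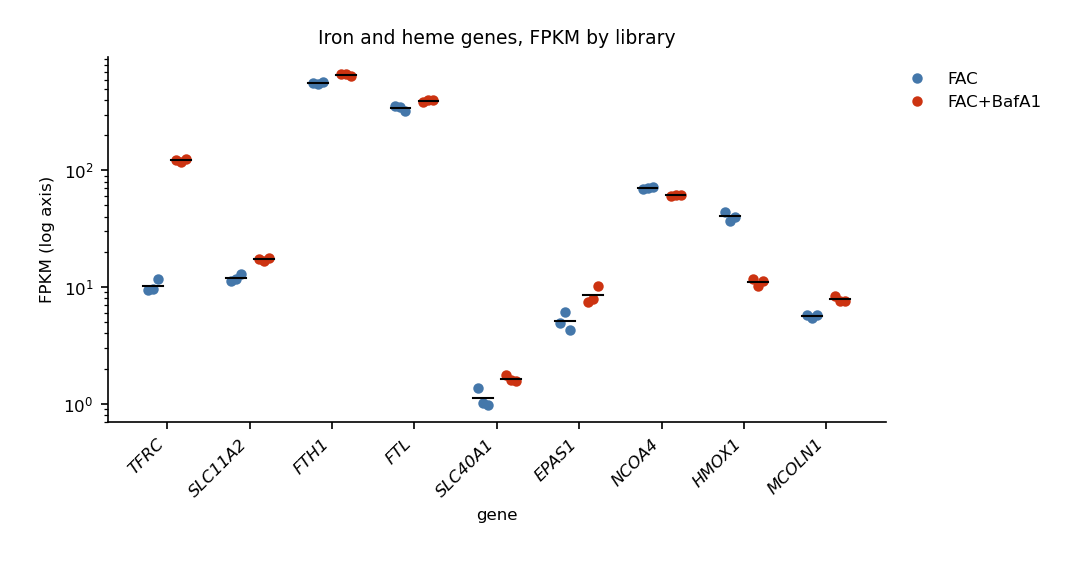
FPKM (vertical log axis) of 9 iron and heme genes in the 3 FAC (blue) and 3 FAC+BafA1 (red) libraries, with black lines at the means. TFRC is separated by the widest gap upward (9.39 to 11.7 against 119 to 124) and HMOX1 by the widest gap downward (36.6 to 44.2 against 10.2 to 11.7).

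Among 25 other genes of iron and heme handling, 3 rose and 5 fell. HMOX1, heme oxygenase 1, which breaks down heme and releases its iron, had the largest fall of all called coding genes on the log2(FPKM + 1) scale. It was at 44.2, 36.6 and 39.9 FPKM in FAC and 11.7, 10.2 and 11.3 in FAC+BafA1. The groups were far apart, with a 3.64-fold lower mean and a log2 change of -1.77 (SE 0.076, adjusted p = 2.4e-05). Without FAC its mean went from 21.2 to 7.97 FPKM, and the interaction was -0.47 (adjusted p = 0.0021), a larger fall with FAC. MCOLN1, the lysosomal channel that passes iron and calcium to the cytosol, was at 5.73, 5.39 and 5.78 FPKM in FAC and 8.45, 7.58 and 7.66 in FAC+BafA1 (log2 change 0.42, adjusted p = 0.00579). Without FAC its change was 0.02, and the difference was 0.40 (adjusted p = 0.014).

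NCOA4, the receptor that delivers ferritin to lysosomes, was at 69.4, 70.0 and 71.8 FPKM in FAC and 60.0, 61.1 and 61.9 in FAC+BafA1. It fell by 0.20 (SE 0.031, adjusted p = 0.0054), whereas without FAC BafA1 raised it from a mean of 58.8 to 86.0. The difference was -0.75 (adjusted p = 3.4e-08). CISD2, an iron-sulfur protein of the ER and mitochondrial membranes, rose by 0.21. BACH1, the heme-sensing repressor of HMOX1, rose by 0.33 (9.58, 10.1 and 11 FPKM in FAC against 12.8, 13.3 and 13.1). The iron regulatory protein genes ACO1 (-0.10) and IREB2 (-0.01) did not pass the test. The fall count of 5 went to between 2 and 4 when any 1 library was left out.

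Iron is also needed to build iron-sulfur clusters and heme. Of 37 genes of iron-sulfur cluster and heme assembly, 1 rose and 5 fell (2 to 4 fell with 1 library left out). ALAS1, which starts heme synthesis, was the riser, at 27.9, 28.9 and 28.2 FPKM in FAC and 34.6, 35.3 and 35.4 in FAC+BafA1 (log2 change 0.30, adjusted p = 0.00202). HSPA9, the mitochondrial chaperone of cluster transfer, fell by 0.19 and BOLA3 by 0.22. Of the 35 measured 2-oxoglutarate oxygenases, which need ferrous iron, 7 rose and 1 fell, and 2 to 5 rose with 1 library left out. P4HA1, a collagen prolyl hydroxylase, rose by 0.36 and KDM3A, a histone demethylase, by 0.32.

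The immediate early genes encode transcription factors that respond within minutes to growth factors and stress. Of 24 measured members, 20 rose and 1 fell, with a median log2 change of 0.87 (18 to 19 rose with 1 library left out). EGR1, a zinc finger factor, was at 0.61, 0.58 and 0.42 FPKM in FAC and 15.1, 14.6 and 11.6 in FAC+BafA1. It was close to undetected in every FAC library and clearly expressed in every FAC+BafA1 library (25.7-fold by means, log2 change 3.26, SE 0.11, adjusted p = 5.84e-06). ATF3, a stress-induced bZIP factor, was at 26.5, 25.7 and 26.6 FPKM in FAC and 126, 121 and 119 in FAC+BafA1 (4.64-fold, log2 change 2.17, SE 0.035, adjusted p = 1.79e-07).

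JUN, JUND and FOS encode subunits of the AP-1 factor. JUN was at 50.5, 47.6 and 49.5 FPKM in FAC and 147, 142 and 141 in FAC+BafA1, and JUND at 8.83, 8.21 and 8.37 against 28.8, 26.3 and 23.7. For both the log2 change was 1.52, and neither gene's groups overlapped. FOS was low, at 0.78, 0.32 and 0.28 FPKM in FAC and 2.19, 1.81 and 1.75 in FAC+BafA1 (log2 change 1.01, adjusted p = 0.00514). The log2(FPKM + 1) scale understates a change at that level. IER5 was the member that fell, from 9.88 to 10.8 FPKM in FAC to 8.42 to 8.77 in FAC+BafA1, and IER3 (0.06), NR4A2 (0.14) and SRF (0.12) did not pass.

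Most members of the list changed by less with FAC than without. EGR1 reached a mean of 188 FPKM in BafA1 without FAC, where its log2 change was 6.98, so the change with FAC was smaller by 3.73 (interaction -3.73, adjusted p = 3.8e-09). The interaction was -3.59 for FOS, -2.53 for ATF3 and -0.62 for JUN. For JUND it was 0.09 (adjusted p = 0.66), with means of 8.24 and 24.1 FPKM without FAC. Over the list, 19 of 24 members had a called interaction below 0 and 2 above 0, beside 19.8% and 29.3% of all genes tested (49.1% in either direction).

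The EGR1 promoter is shown because EGR1 had the second largest rise on the log2(FPKM + 1) scale. These are the 250 bases before the transcription start on GRCh38.p14 (RefSeq), plus strand, chr5:138465229-138465478, and capitals mark 2 matches to the CArG box, the motif bound by serum response factor, whose first bases lie 105 and 83 bases before the start.
EGR1 promoter: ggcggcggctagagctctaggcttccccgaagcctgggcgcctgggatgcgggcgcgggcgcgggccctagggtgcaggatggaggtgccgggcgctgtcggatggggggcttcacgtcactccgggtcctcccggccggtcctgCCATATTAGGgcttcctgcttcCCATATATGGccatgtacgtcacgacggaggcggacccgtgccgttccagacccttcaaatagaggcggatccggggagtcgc
Promoter entries, which span 250 bases before to 50 after the start, were found for 17 of the 24 early genes. A CArG box on either strand was in 2 of them, EGR1, which was called higher, and SRF, which was not called. It was in 1.04% of the 9919 promoters of tested genes. In the list of actin genes and SRF and YAP targets it was in 5 of 21 promoters, of which 2 were called higher and 1 lower. The cAMP response element TGACGTCA was in JUND and MAFF, both called higher, and in 3.52% of all. These letters do not show that a factor was bound.

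The MAP kinase feedback genes encode phosphatases and inhibitors that are induced by the kinase cascade and damp it. Of 14 measured members, 11 rose and none fell, with a median of 0.44 (7 to 9 rose with 1 library left out). ETV5, an ETS factor downstream of ERK, was at 0.13, 0.15 and 0.34 FPKM in FAC and 2.75, 2.54 and 3.69 in FAC+BafA1 (log2 change 1.72, adjusted p = 0.000347). DUSP8, a phosphatase of JNK and p38, was at 3.02, 3.03 and 2.49 FPKM in FAC and 11.9, 8.86 and 11.2 in FAC+BafA1 (1.59, adjusted p = 0.000201). Both sets of replicates were fully separated. DUSP1 rose by 1.27 (8.06 to 9.25 against 21.5 to 23.2 FPKM) and SPRED2, an inhibitor of RAF activation, by 0.97. MAP2K6, the kinase that activates p38, fell: it was at 11.7, 13.0 and 13.0 FPKM in FAC and 5.74, 4.82 and 5.46 in FAC+BafA1 (-1.10, SE 0.075, adjusted p = 0.00017).

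**Figure D4:**
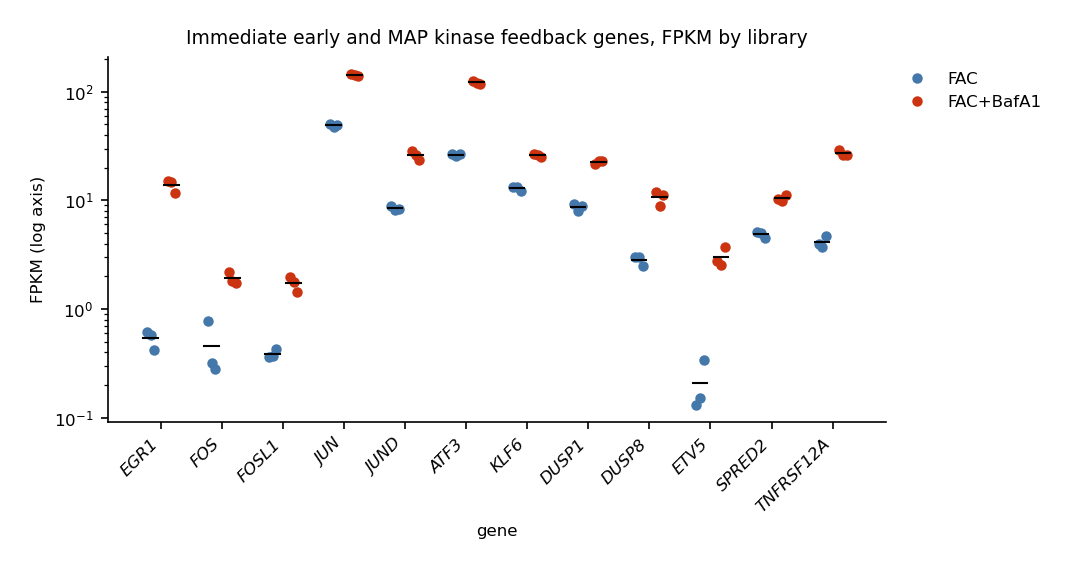
FPKM (vertical log axis) of 12 genes from the early, feedback and actin lists in the 3 FAC (blue) and 3 FAC+BafA1 (red) libraries, with black lines at the means. In each gene shown the red points lie above all blue points, from EGR1 (0.42 to 0.61 against 11.6 to 15.1) to KLF6 (12.2 to 13.4 against 24.9 to 26.6).

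Targets of SRF and YAP and actin genes were mixed, with 11 of 25 higher and 3 lower. TNFRSF12A, the receptor of the cytokine TWEAK, was at 3.97, 3.71 and 4.69 FPKM in FAC and 29.1, 26.2 and 26.3 in FAC+BafA1. This separation was 6.60-fold by means and 2.46 on the log2(FPKM + 1) scale (adjusted p = 5.36e-06). On that scale it was the third largest rise among coding genes. CCN1, a secreted matricellular protein, rose by 0.97. TAGLN2, an actin-binding protein, was at 223, 228 and 209 FPKM in FAC and 379, 370 and 370 in FAC+BafA1 (0.76, adjusted p = 3.76e-05), and TPM4, a tropomyosin, rose by 0.39. Both TAGLN2 (0.34) and TPM4 (0.32) changed more with FAC than without, with adjusted interaction p of 0.00014 and 0.00032. The members that fell were ACTB (-0.23), ACTG1 (-0.25), both with pseudogenes that can take their reads, and TPM1 (-0.46). AMOT, the angiomotin that binds YAP, fell from 253, 257 and 246 FPKM to 136, 140.0 and 148 (-0.83, SE 0.036, adjusted p = 2.4e-05).

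Chaperones that refold proteins in the cytosol and are driven by heat shock factor 1 fell in most cases: 14 of 25 measured members fell and 1 rose, with a median log2 change of -0.16 (12 to 15 fell with 1 library left out). HSPA1B, an inducible HSP70, was at 658, 700.1 and 625 FPKM in FAC and 346, 356 and 387 in FAC+BafA1. Every FAC+BafA1 library was lower, by 0.86 on the log2 scale (SE 0.052, adjusted p = 0.000107). HSPA1A, its near-identical neighbour, was at 13.3, 15.3 and 12.02 FPKM against 8.40, 9.78 and 9.73 (-0.49, adjusted p = 0.0133). Reads that fit both genes could be split between them in either way, so the 2 levels are uncertain.

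The constitutive chaperones moved little at high levels. HSPA8, the constitutive HSP70, went from 1155, 1195 and 1221 FPKM to 1049, 1063 and 1075, which is a fall of 0.16 (adjusted p = 0.00629) that missed the threshold after quantile normalization (adjusted p = 0.0533). HSP90AB1 fell by 0.23 and HSPD1, the mitochondrial HSP60, by 0.22. For HSPA1B the log2 change without FAC was -3.13 and the interaction 2.27 (adjusted p = 3.3e-09). For HSPA8 the change without FAC was -1.59 and the interaction 1.42. Over the list, 19 of 25 members had a called interaction above 0 and 3 below, beside 29.3% and 19.8% of all genes tested. The riser was HSPB8, a small heat shock protein that works with BAG3 in selective autophagy: it was at 0.99, 0.77 and 1.04 FPKM in FAC and 8.68, 8.63 and 8.47 in FAC+BafA1 (9.21-fold, log2 change 2.31, SE 0.081, adjusted p = 6.57e-06).

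Promoters were searched on either strand for exact matches to a single fixed pattern of the heat shock element. Such matches were in 3 of the 23 chaperone promoters found (CHORDC1, DNAJA1 and HSPA8) and in 0.272% of all 9919. Imperfect matches were not counted. The lack of a match, as in HSPA1A and HSPA1B, therefore does not show that a promoter has no heat shock element. The 250 bases before the HSPA8 start, on the minus strand at chr11:123062137-123062386, hold 2 matches, which begin 230 and 55 bases before the start and are in capitals.
HSPA8 promoter: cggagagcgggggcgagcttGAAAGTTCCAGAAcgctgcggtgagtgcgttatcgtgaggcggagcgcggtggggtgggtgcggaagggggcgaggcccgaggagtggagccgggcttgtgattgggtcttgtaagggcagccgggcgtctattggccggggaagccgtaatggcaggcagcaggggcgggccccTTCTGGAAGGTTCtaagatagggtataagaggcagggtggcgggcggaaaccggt

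NRF2 is the main activator of antioxidant genes. Of 31 measured members of its list, 13 fell and 2 rose (9 to 12 fell with 1 library left out). After HMOX1, the largest fall was in PIR, an iron-binding nuclear protein, at 22.2, 23.4 and 23.8 FPKM in FAC and 12.8, 10.9 and 12.8 in FAC+BafA1 (-0.87, adjusted p = 0.000315). GCLM, a subunit of the rate-limiting enzyme of glutathione synthesis, was at 26.7, 27.2 and 27.5 FPKM against 17.02, 15.4 and 15.8 (-0.72, adjusted p = 0.000155). Neither gene's groups overlapped. MAFG, a small MAF partner of NRF2 and BACH1, rose by 0.91 (7.88 to 8.35 against 15.4 to 16.4 FPKM). Other NRF2 targets did not pass: TXNRD1 changed by -0.04, SRXN1 by 0.02, GCLC by 0.04 and NFE2L2, which encodes NRF2, by 0.08.

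Of 7 metallothionein and zinc response genes, 2 rose and 3 fell (1 to 2 and 2 to 3 with 1 library left out). MT1X, which binds zinc and copper, was at 11.2, 11.6 and 11.7 FPKM in FAC and 6.08, 6.0 and 5.20 in FAC+BafA1 (-0.89, SE 0.067, adjusted p = 0.000256). MT2A was at 17.8, 17.8 and 14.4 against 10.7, 12.3 and 12.2 (-0.47, adjusted p = 0.0138), a call lost with no filter on low values (0.0541). These genes have close paralogs, between which reads can be split. SLC30A1, the zinc exporter, fell by 0.34, a call lost without FAC+BafA1 replicate 2 (adjusted p = 0.0643) or 3 (0.0612). It was also lost with a replicate block (0.0577) and with no filter on low values (0.0581). SLC39A10, a zinc importer, rose by 0.18 with FAC (36.3, 36.0 and 35.9 against 40.3, 40.5 and 41.8 FPKM), while its mean fell from 24.3 to 14.5 FPKM without FAC (interaction 0.88, adjusted p = 7e-08). Its call with FAC was lost with a replicate block (adjusted p = 0.0532).

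Lysosomal hydrolases changed little as a list: 5 of 40 rose, 2 fell and the median was 0.05 (3 to 5 rose with 1 library left out). Without FAC, 27 fell and 5 rose, with a median of -0.41, where 37.2% of all genes tested fell and 28.5% rose. The interaction was called above 0 in 28 members and below 0 in none, beside 29.3% and 19.8% of all genes tested. GLA, alpha-galactosidase A, which acts on glycosphingolipids, was at 139.6, 137 and 143 against 209, 213 and 201 (0.57, adjusted p = 7.41e-05), and NEU1, the lysosomal sialidase, at 18.3, 19.9 and 18.5 against 28.1, 28.8 and 28.7 (0.57). In both genes the groups were fully separated. CTSC, a cathepsin, fell by 0.30, and CTSD, cathepsin D, at 39.0 to 46.0 against 47.0 to 49.3 FPKM, did not pass (0.17, adjusted p = 0.0866), except without FAC replicate 2 (0.0455).

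Of 33 lysosomal membrane and accessory proteins, 12 rose and 1 fell (7 to 9 rose with 1 library left out). CLCN7, the chloride-proton exchanger, was at 17.5, 16.6 and 15.3 FPKM in FAC and 23.9, 23.6 and 23.2 in FAC+BafA1 (0.50, adjusted p = 0.00157). NPC1, which exports cholesterol, rose by 0.47 (15.2 to 16.3 against 21.2 to 23.4 FPKM), its partner NPC2 by 0.24 and IGF2R, the mannose 6-phosphate receptor, by 0.32. LAMP1 did not pass (0.13, adjusted p = 0.166), whereas without FAC its mean fell from 37.0 to 23.3 FPKM (interaction 0.77, adjusted p = 7.4e-06).

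Of 23 measured subunits and partners of the V-ATPase, the target of BafA1, 6 rose and none fell (3 to 5 rose with 1 library left out). ATP6V0A1, a membrane subunit, was at 31.1, 30.9 and 29.5 FPKM in FAC and 41.1, 43.3 and 41.4 in FAC+BafA1 (0.45, adjusted p = 0.000545). ATP6V0C, the proteolipid ring subunit to which BafA1 binds, was at 77.7, 66.8 and 77.9 against 99.99, 102 and 97.7 (0.43, adjusted p = 0.00415). Its groups did not overlap. Without FAC ATP6V0C fell, from a mean of 82.7 to 64.8 FPKM, and the interaction was 0.78 (adjusted p = 0.00016). ATP6V0B rose by 0.21. The other 17 members, among them ATP6V1A (0.03) and ATP6V1B2 (0.09), did not pass.

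Of 25 genes of TFEB and the mTORC1 lysosomal machinery, 4 rose and 2 fell (2 to 3 rose and 1 to 3 fell with 1 library left out). FLCN, folliculin, a GTPase-activating protein of RagC and RagD, was at 11.7, 11.5 and 10.7 FPKM in FAC and 19.0, 17.8 and 18.1 in FAC+BafA1 (0.65, SE 0.053, adjusted p = 0.000404). Its partner FNIP1 rose by 0.40. TFEB (0.22), MITF (0.08) and MTOR (-0.04) did not pass. The lysosomal E-box TCACGTGA, searched on either strand, was in 2.12% of all 9919 promoters, in 5 of the 27 found for membrane and accessory genes and in 4 of the 28 for hydrolases. Of the 5, MCOLN1, GNPTG and IGF2R were called higher, and of the 4 none was called in either direction. The E-box was also in 2 of 17 V-ATPase, 1 of 23 TFEB and mTORC1 and 1 of 37 autophagy promoters, and none of those members was called. The promoters of the risers GLA, NEU1, NPC1, CLCN7, FLCN, SQSTM1, ATP6V0A1 and ATP6V0C held no match. MCOLN1 is shown because it rose with FAC and not without: 2 matches, in capitals, begin 42 and 15 bases before its start on the plus strand at chr19:7522374-7522623.
MCOLN1 promoter: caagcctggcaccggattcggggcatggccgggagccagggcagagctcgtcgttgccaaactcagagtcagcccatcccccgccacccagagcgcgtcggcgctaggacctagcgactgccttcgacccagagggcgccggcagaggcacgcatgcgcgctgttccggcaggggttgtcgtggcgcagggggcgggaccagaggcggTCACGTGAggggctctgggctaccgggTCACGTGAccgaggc

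Of 42 autophagy genes, 9 rose and 1, NCOA4, fell (5 to 7 rose with 1 library left out). SQSTM1, the receptor p62, was at 54.0, 52.6 and 49.2 FPKM in FAC and 74.8, 72.9 and 73.0 in FAC+BafA1, without overlap (0.50, SE 0.041, adjusted p = 0.000408). GABARAPL1 rose by 0.51 and MAP1LC3B, which encodes LC3B, by 0.24 (48.5 to 50.02 against 57.4 to 59.05 FPKM). Most core ATG genes did not pass, among them ATG5 (-0.03), ATG7 (-0.11) and BECN1 (0.05). Of 40 endosomal sorting and tethering genes, 4 rose and 3 fell (2 to 3 rose and 2 to 3 fell with 1 library left out).

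HIF factors drive the response to low oxygen, and the prolyl hydroxylases that mark them for decay need iron. Of 43 measured HIF targets, 16 rose and 4 fell, with a median of 0.16 (10 to 14 rose and 2 to 3 fell with 1 library left out). BHLHE40, a transcriptional repressor, was at 5.13, 5.30 and 5.85 FPKM in FAC and 13.0, 13.2 and 13.4 in FAC+BafA1 (1.14, adjusted p = 5.93e-05). NDRG1, a gene also induced by iron chelation, was at 17.9, 15.6 and 15.9 against 34.2, 31.3 and 32.8 (0.95, adjusted p = 0.000142). In both the groups were fully separated. BNIP3L rose by 0.37 and P4HA1 by 0.36. VEGFA was at 13.9, 14.9 and 11.5 FPKM against 18.6, 17.3 and 15.2, which did not overlap and did not pass (0.33, adjusted p = 0.0698). It passed when only genes averaging 5 FPKM or more were tested (adjusted p = 0.0488), with a replicate block (0.0323) and in the limma fit to 12 libraries (0.024). Several classical targets did not pass: PGK1 (0.02), ENO1 (0.01), PFKFB4 (-0.22) and EGLN3 (-0.18).

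DDIT4, an mTORC1 inhibitor in the HIF list, fell, from 36.6, 36.3 and 34.7 FPKM to 19.97, 21.4 and 19.0 (-0.80, SE 0.052, adjusted p = 0.00014), although without FAC it rose from a mean of 35.9 to 71.7. The interaction was -1.79 (adjusted p = 6.7e-09). For NDRG1 it was -1.01 and for VEGFA -1.37, and 18 of the 43 members had a called interaction below 0 and 4 a called one above, beside 19.8% and 29.3% of all genes tested. The hypoxia response core ACGTGC was in 17 of the 35 HIF target promoters found, of which 5 were called higher and 4 lower, beside 9.14% of all promoters. In the glycolysis list 5 of 21 rose and 2 fell. HK2, hexokinase 2, rose by 0.33, LDHA by 0.16 and LDHB and PDHA1 fell by 0.15 and 0.20.

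ATF4 is the transcription factor of the integrated stress response, which restores amino acid supply. With FAC its targets split: 9 of 43 rose, 11 fell and the median was -0.07 (6 to 8 fell with 1 library left out). Without FAC, 39 rose and 1 fell, with a median of 1.05, where 28.5% of all genes tested rose and 37.2% fell. The interaction was called below 0 in 40 members, beside 19.8% of all genes tested. ASNS, which makes asparagine, was at 153, 151 and 155 FPKM in FAC and 129, 128 and 123 in FAC+BafA1. It was lower in every FAC+BafA1 library (-0.27, SE 0.029, adjusted p = 0.00152), while without FAC its mean rose from 144 to 423 FPKM (interaction -1.81, adjusted p = 1.6e-10). PSAT1, an enzyme of serine synthesis, fell by 0.28. ATF4 mRNA itself was at 537, 538 and 513 FPKM against 549, 566 and 564, and did not pass (0.08, adjusted p = 0.081), except after quantile normalization (0.13, adjusted p = 0.00625).

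The members that rose include stress factors and transporters. PPP1R15A, which directs the phosphatase of eIF2α, was at 9.58, 8.81 and 8.05 FPKM in FAC and 20.6, 19.3 and 18.2 in FAC+BafA1 (1.05, adjusted p = 0.000179). DDIT3, which encodes CHOP, was at 6.14, 7.49 and 6.78 against 13.9, 14.1 and 12.8 (0.91, adjusted p = 0.00043). The groups did not overlap in either gene. SLC3A2, the heavy chain of amino acid exchangers, rose by 0.48. The unfolded protein response of the ER was mixed as well: of 27 members 9 rose and 3 fell, with a median of 0.02 beside 0.94 without FAC (5 to 9 rose and 0 to 4 fell with 1 library left out). DNAJB9, an ER cochaperone, rose by 0.49, SYVN1, an ER ubiquitin ligase, by 0.46, SELENOS by 0.32 and XBP1 by 0.26, while HSPA5, the ER chaperone BiP, changed by 0.00 and did not pass. Of 14 snoRNA host lncRNAs, whose spliced RNA is unstable when translated, 1 rose and 1 fell. Without FAC 12 of them rose and 2 fell, where 28.5% of all genes tested rose and 37.2% fell.

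The cholesterol list had no common direction, with 4 of 26 higher and 6 lower (2 to 3 and 5 to 6 with 1 library left out). MSMO1 fell by 0.32 (51.0 to 52.3 against 40.4 to 41.8 FPKM), SQLE, squalene epoxidase, by 0.27 and NSDHL by 0.26. HMGCS1, which makes the HMG-CoA of the pathway, was at 82.6 to 82.9 against 86.0 to 89.8 FPKM and did not pass (0.08, adjusted p = 0.0954).

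RNF145, a ubiquitin ligase of the ER that acts on sterol regulation, was in no list and had one of the largest rises, from 24.97, 23.8 and 27.0 FPKM to 80.3, 80.9 and 77.4 (3.15-fold, log2 change 1.62, SE 0.050, adjusted p = 5.08e-06). Its change without FAC was 1.57, and the interaction was 0.05 (adjusted p = 0.65). STX3, a syntaxin of vesicle fusion, was at 12.3, 13.0 and 13.0 FPKM against 38.6, 40.6 and 37.1 (1.53). CLU, the secreted chaperone clusterin, was at 6.64, 6.53 and 5.63 against 20.1, 20.4 and 19.3 (1.53), and C11orf96 at 1.07, 1.07 and 1.25 against 8.24, 7.12 and 5.98 (1.92). All 4 genes were fully separated between the groups. Of the 42 genes that rose by at least 1, 18 were in a list and 24 were not, and 41 of the 42 also rose without FAC.

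Other called coding genes with large falls include ALDH1A2, which makes retinoic acid, at 30.8, 32.7 and 29.2 FPKM in FAC and 13.3, 14.6 and 15.1 in FAC+BafA1 (-1.06, adjusted p = 8.65e-05). The transcription factors HLX (-0.84) and RUNX1T1 (-0.85), the growth factor binding protein IGFBP5 (-0.85) and the amino acid transporter SLC43A2 (-0.82) also fell, each without overlap. H4C12, a histone gene, was at 2.53, 3.85 and 3.23 FPKM against 2.29, 0.57 and 0.83 (-0.98, adjusted p = 0.0433). It lost the call without any 1 of FAC replicate 1 (adjusted p = 0.0657), 2 (0.124) or 3 (0.0945) or FAC+BafA1 replicate 2 (0.114) or 3 (0.122).

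Nuclear-encoded genes of the respiratory chain were slightly and widely lower: 30 of 76 fell, none rose and the median was -0.11, with 69 members below 0. The count was 16 to 30 with 1 library left out and 15 after quantile normalization, where the median was -0.06. UQCRC2, of complex III, was at 175, 178 and 178 FPKM in FAC and 155, 152 and 145 in FAC+BafA1 (-0.23, adjusted p = 0.00324). ATP5MC3, an ATP synthase subunit, fell by 0.23 and NDUFB4, of complex I, by 0.20. No change in the list was larger than 0.28. Without FAC 72 of the 76 fell, with a median of -0.55, beside 37.2% of all genes tested that fell without FAC. Of 13 mitochondrially encoded genes none passed, all 13 log2 changes were above 0 and the median was 0.22, in libraries whose mitochondrial share of FPKM was given above. Of 75 cytosolic ribosomal protein genes 5 fell and none rose. The number that fell was 0 to 18 with 1 library left out (18 without FAC replicate 3), and after quantile normalization none fell and 3 rose.

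BMP signalling, which governs hepcidin in liver, was represented by 18 genes, of which 6 rose and 1 fell (3 to 5 rose with 1 library left out). ID3, a direct target, was at 4.70, 3.79 and 3.70 FPKM in FAC and 7.31, 6.31 and 6.45 in FAC+BafA1 (0.61, adjusted p = 0.00644). Without FAC it fell, from a mean of 60.4 to 16.6 FPKM (interaction 2.42, adjusted p = 5.8e-08). ID1 was at 0.93, 0.49 and 0.62 against 1.31, 1.45 and 1.47 (0.53, adjusted p = 0.0266). Its call was lost without any 1 library other than FAC replicate 1, with adjusted p from 0.0605 to 0.0807. BMP2 rose by 0.56 and the receptor gene ACVR1 by 0.43.

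Of 23 p53 targets, 6 rose and 4 fell (1 to 4 fell with 1 library left out). CDKN1A, the cell cycle inhibitor p21, was at 8.50, 8.38 and 8.35 FPKM in FAC and 18.8, 20.1 and 19.7 in FAC+BafA1 (1.13, SE 0.047, adjusted p = 2.03e-05). GADD45A was at 9.80, 8.63 and 9.64 against 25.04, 21.4 and 18.7 (1.12), and BBC3, which encodes PUMA, rose by 0.75. These genes were separated between the groups, while MDM2 (-0.15), FAS (-0.17) and BAX (-0.11) did not pass. HEK293T carries large T antigen, which binds p53. Of 44 DNA replication genes 6 rose and 1 fell, and of 30 mitosis genes 1 rose and 4 fell. With 1 library left out, 1 to 4 replication genes rose and 2 to 3 mitosis genes fell. POLE, a replicative polymerase, rose by 0.25, and CCNB1 and CDC20 fell by 0.19 and 0.26, with CCNB1 at the threshold after quantile normalization (adjusted p = 0.05). Of 12 NF-κB genes 3 rose, the largest being RIPK2 by 0.38, and 1 or 2 rose with 1 library left out.

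Against the same genes without FAC, the response in iron-supplied cells was smaller. In the limma fit to all 12 libraries, 65.7% of genes were called without FAC (28.5% higher, 37.2% lower). That fit called 8844 genes without FAC and 2696 with FAC, beside the 2311 called with FAC in the fit to 6 libraries. The median size of the log2 change was 0.11 with FAC and 0.29 without. Of the 2311 genes called with FAC, 1938 were also called without it, which is 83.86% of the calls with FAC and 21.91% of those without. The direction was the same for 1774 of the 1938 and opposite for 164. The 2 comparisons share no library in their group means, but the calls without FAC used a spread estimated from all 12 libraries. By the interaction test, 1165 of the 2311 changed less with FAC in the same direction, 282 changed more and 756 had no called interaction. Of the 48 genes that changed by at least 1, 31 changed less, 8 changed more and 9 had no called interaction. Over all genes tested, 59.67% of called interactions were above 0, and 49.13% after median-of-ratios scaling.

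**Figure D5:**
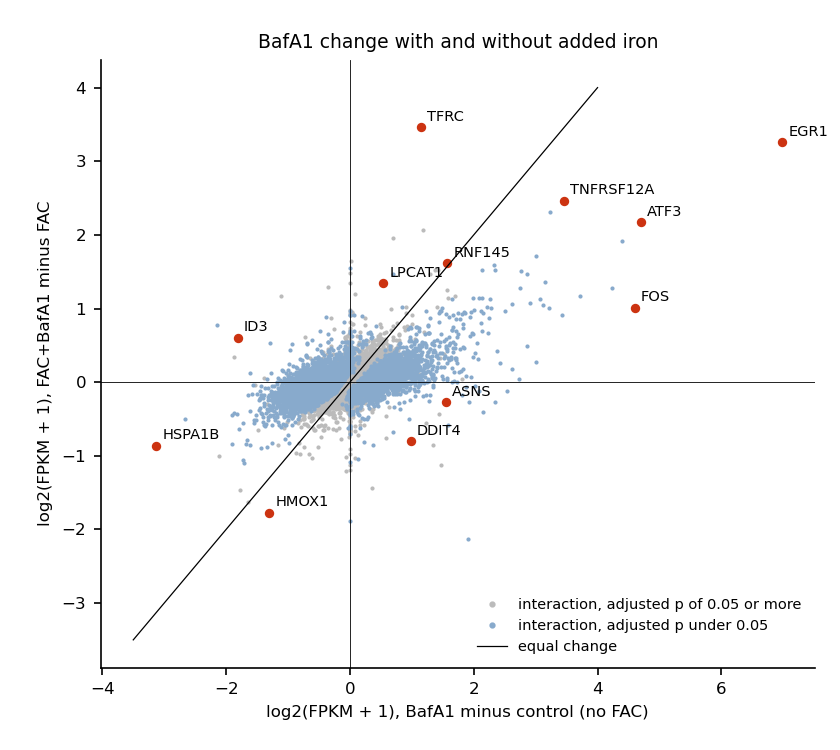
Change in log2(FPKM + 1) with BafA1 in FAC-treated cells (vertical axis) against the change without FAC (horizontal axis) for 13468 genes, with a line at equal change and blue points where the interaction passed an adjusted p of 0.05. TFRC (1.15, 3.46) and LPCAT1 (0.54, 1.34) lie above the line, and EGR1 (6.98, 3.26), FOS (4.60, 1.01) and ATF3 (4.70, 2.17) lie far below it.

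Of the 282 genes that changed more with FAC, 197 rose and 85 fell, 235 are protein coding and 27 were listed at 0 in all 6 libraries without FAC. The libraries with and without FAC fill some gene entries differently. Of the genes tested here, 432 were listed at 0 in all 6 libraries without FAC. For them the interaction compares a change with an entry that was not filled. The steps of low FPKM values differed too: 74.1% to 76.3% came within 0.2 of a whole fragment number with FAC and 53.4% to 56.1% without. Both differences coincide with FAC. Their part in the interactions, and in levels compared between libraries with and without FAC, was not tested. After TFRC and HMOX1 the coding genes with the largest changes among the 282 were EMILIN2, a matrix glycoprotein, and LPCAT1, which remodels phosphatidylcholine. EMILIN2 was at 1.21, 0.96 and 1.13 FPKM in FAC and 4.67, 4.77 and 4.96 in FAC+BafA1 (1.47, adjusted p = 7.41e-05), and its interaction was 0.77 (adjusted p = 3.1e-05). LPCAT1 was at 33.7, 33.2 and 36.1 against 91.9, 86.7 and 86.8 (1.34, adjusted p = 5.3e-06), and its interaction was 0.80 (adjusted p = 1.5e-06). In both genes each FAC+BafA1 library was above each FAC library. The pseudogene ENSG00000223544, at 4.10, 4.98 and 4.47 FPKM in FAC and 0.00, 2.07 and 0.07 in FAC+BafA1, is 1 of the 27. Its call was lost when FAC replicate 2 was left out (adjusted p = 0.0576, limma), as it was for replicates 1 (0.0549) and 3 (0.0569) of FAC+BafA1.

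Of the 164 genes called in opposite directions, 105 were higher and 59 lower with FAC. ENSG00000267740 and DDIT4 fell with FAC and rose without. The first was at 3.0, 3.99 and 2.67 FPKM in FAC and 1.67, 1.09 and 1.20 in FAC+BafA1, and below 1 FPKM in all libraries without FAC. PDF, a mitochondrial peptide deformylase, rose from 2.90, 3.92 and 2.69 FPKM to 6.34, 5.26 and 5.46 (0.69, adjusted p = 0.00989), while its mean fell from 5.34 to 3.55 FPKM without FAC. There the groups overlapped, at 6.34, 5.71 and 3.96 FPKM in control and 2.97, 2.95 and 4.74 in BafA1. GATA2-AS1, an antisense lncRNA, rose from 2.34 to 3.55 FPKM to 4.89 to 5.36 (0.65, adjusted p = 0.00995). Whether the authors' counting used strand is not given in the sources used here, so its reads cannot be told apart from those of an overlapping gene. CFAP298-TCP10L, a readthrough gene, was at 14.5, 14.04 and 13.1 FPKM against 6.91, 6.86 and 11.9 (-0.68, adjusted p = 0.039). Without FAC the entry was listed at 0 in all 3 control libraries and at 1.7, 0.0 and 0.57 FPKM in the BafA1 libraries, which overlap them, so its opposite direction rests on an entry that was almost unfilled there. It lost its call without any 1 library other than FAC+BafA1 replicate 3, with adjusted p from 0.0723 to 0.113.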

How the data were processed

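Messenger RNA of HEK293T cells was sequenced in 12 libraries, 3 for each of control, BafA1, FAC and FAC+BafA1. The authors deposited 1 table of FPKM values with 2 decimals for 56340 gene entries. STAR, RSEM and the GRCh38 build are named in the submitters' processing notes, without versions, annotation or strand setting, which no source used here gives. FPKM values are scaled to the number of fragments in each library, so a change is relative to the other transcripts of that library. The 3 repeated gene IDs, listed at 0 in every library, were dropped. Symbols and positions came from GENCODE release 44 (56104 of 56337 IDs matched), and promoters from RefSeq (GRCh38.p14).

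FAC+BafA1 was compared with FAC in the 6 libraries with FAC alone by limma 3.58.1 (R 4.3.3) on log2(FPKM + 1), with an intensity trend and Benjamini-Hochberg adjustment over the 13468 genes that averaged 1 FPKM or more. The pseudocount of 1 understates the change of low genes. The interaction and all calls for BafA1 against control without FAC came from 1 limma fit to all 12 libraries. The procedure was tested on simulated data. The number of fragments was estimated from the steps of FPKM values under 0.5 in transcripts of 500 to 1000 bases. In the libraries with FAC 74.1% to 76.3% of these values came within 0.2 of a whole number, and in those without FAC 53.4% to 56.1%. The estimate is therefore approximate, and no counting interval was drawn from it.

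The libraries, gene lists and tests were chosen with earlier results of these data known. Named genes are the 12 largest rises and 12 largest falls among called protein-coding genes without overlap, up to 4 called members of each list with the smallest adjusted p, 23 genes kept throughout, and for the interaction the 5 genes with the largest change among those that changed more with FAC and the 5 among those called in opposite directions. Other list members are named as examples, among them most of those that did not pass, and were chosen after their values were seen. Some genes that met the rule are not reported here. The alternatives were another pseudocount, other filters, quantile and median-of-ratios scaling, no trend, a replicate block, all 12 libraries in 1 fit, and leaving out each library.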

Additional observations from a re-analysis of the deposited data

Results flagged for a closer look

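The effect of BafA1 differed with and without FAC in 44 of the 51 named genes tested for it. The test was that of the interaction in limma over 12 libraries, at an adjusted p under 0.05. Some of the 51 were chosen because their interaction was called, which fixes part of the 44 in advance. The 44 of 51 therefore cannot be compared with the share over all genes tested, which was 49.1%. The values of the called named genes reported here follow, each the log2 change with FAC minus that without. The explanation of these differences was not tested.

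Among iron and heme genes the difference was 2.32 for TFRC, 0.89 for SLC40A1, 0.38 for FTH1, 0.29 for SLC11A2, -0.47 for HMOX1 and -0.75 for NCOA4. SLC11A2 missed the threshold after median-of-ratios scaling (adjusted p = 0.0645).

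Among immediate early, feedback and actin genes it was -3.73 for EGR1, -3.59 for FOS, -2.53 for ATF3, -1.29 for ETV5, -0.99 for TNFRSF12A, -0.73 for DUSP8, -0.62 for JUN and 0.16 for AMOT. The AMOT difference missed the threshold after quantile normalization (0.08, adjusted p = 0.312), after median-of-ratios scaling (0.084, adjusted p = 0.241), with no filter (adjusted p = 0.0825) and with no intensity trend (0.0711). It also did so without any 1 of control replicates 2 and 3, BafA1 replicates 1 and 2, FAC replicates 1 and 3 and FAC+BafA1 replicates 2 and 3 (adjusted p from 0.0522 to 0.0879). MAP2K6, which fell on both sides, had 0.62.

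In chaperones it was 2.27 for HSPA1B, 2.17 for HSPA1A, 1.42 for HSPA8 and -0.92 for HSPB8. That of HSPB8 was -0.16 and not called after quantile normalization (adjusted p = 0.18). In NRF2 and metal response genes it was 0.85 for MT2A, 0.54 for MT1X and 0.47 for PIR.

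HIF targets gave -1.79 for DDIT4, -1.37 for VEGFA and -1.01 for NDRG1, and the ATF4 group gave -1.81 for ASNS and -0.80 for ATF4. Lysosome, autophagy and lipid genes gave 0.80 for LPCAT1, 0.77 for LAMP1, 0.49 for CTSD and -0.15 for SQSTM1. The SQSTM1 difference was not called without control replicate 3 (adjusted p = 0.0579), FAC replicate 1 (0.0607) or 2 (0.055), or FAC+BafA1 replicate 2 (0.0539) or 3 (0.0529). The BMP target ID1 gave 1.22.

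Of the other named genes, the difference was 0.83 for HLX, 0.77 for IGFBP5, 0.77 for EMILIN2, 0.67 for ALDH1A2, -0.81 for STX3 and -2.47 for C11orf96. That of IGFBP5 was 0.133 and not called after quantile normalization (adjusted p = 0.377). Among genes called in opposite directions it was 1.17 for PDF, 1.0 for GATA2-AS1, -1.24 for ENSG00000267740 and -1.37 for CFAP298-TCP10L, whose entry was listed at 0 in all 3 control libraries. ENSG00000223544 gave -1.89 and was listed at 0 in all 6 libraries without FAC.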

How the results depend on the processing

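Of 135 named genes called in FAC+BafA1 against FAC, 105 kept their call and direction in all 14 alternatives, 30 lost the call in at least 1 and none reversed. The lost calls given above for single genes are not a complete list. The 2311 calls became 1294 with no filter on low values (711 higher, 583 lower), and 51.88% of the 2311 were among them. Leaving out 1 library gave 1238 to 2027 calls, of which 651 to 999 were higher and 587 to 1028 lower. The 48 genes that changed by at least 1 became 88 with a pseudocount of 0.1 and 26 with a mean of at least 5 FPKM. Interactions of at least 1 numbered 663 with a pseudocount of 0.1. Of 44 called interactions, 39 kept call and direction in all 19 alternatives.

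No pairing of the libraries by replicate number was detected. The deviations of same-numbered FAC and FAC+BafA1 libraries correlated at 0.0286, -0.0172 and 0.0196, and those of differently numbered ones at -0.0576 to 0.0362. With 3 libraries per group this check cannot show how the libraries were prepared. With the replicate number as a block the count was 1280 (686 higher, 594 lower), and 1240 of these were among the 2311. Not every library correlated best with its own number.

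The interactions that reversed belong to 5 genes whose interaction was not called. That of H4C12 (-0.178) became 0.561 with a pseudocount of 0.1 and ran from -0.497 to 0.26 with 1 library left out. That of SLC43A2 (0.005) became -0.201 after quantile normalization and -0.051 after median-of-ratios scaling, and ran from -0.068 to 0.103 with 1 library left out. That of RUNX1T1 became -0.083 after quantile normalization, and those of RNF145 and HMGCS1 became -0.029 and -0.039 after median-of-ratios scaling. The cause was not tested. Genes at low FPKM were called less often: 7.455% were called in the lowest of 4 equal groups by expression and 28.6% in the highest. The parts of depth and of the pseudocount in this were not tested.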
